A study of Mus musculus with 8 samples.

Results

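The miR-23/27/24 clusters are 2 groups of neighbouring microRNA (miRNA) hairpins, each holding a miR-23, a miR-27 and a miR-24 gene. They were measured here with 5 assays, mmu-miR-23a, mmu-miR-23b, mmu-miR-27a, mmu-miR-27b and mmu-miR-24, out of 750 miRNA assays. The members are the assay rows that carry one of these 5 names once the catalogue number is removed, and assays of the other hairpin arm, marked #, are not members. The cells were CD34+/CD105- cells sorted by flow cytometry from collagenase-digested mouse renal artery, in 4 mice after clamping of both renal arteries and reperfusion and in 4 mice after sham surgery. CD34 marks endothelial and progenitor cells, and CD105 (endoglin) marks endothelial and mesenchymal stromal cells. The labels give no mouse strain, age or sex and no clamping or reperfusion time. The readout was real-time PCR, as a threshold cycle (Ct) that comes earlier where more RNA is present. The comparison asks how miRNA levels in these vascular cells differ after renal ischemia/reperfusion injury.

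Each cluster is made as 1 primary transcript that is cut into its separate miRNAs, and a mature miRNA then represses messenger RNAs that match its seed, the bases near its 5′ end. In endothelial cells, miR-23 and miR-27 are known to promote vessel sprouting by repressing inhibitors of that process such as Sprouty2 and Sema6a. miR-24 is known as a brake on endothelial survival and vessel growth in ischemic tissue, acting on targets such as Gata2 and Pak4.

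The sequences show how alike the members are, which bears on what each assay can tell apart. By name, 4 of the 5 members matched a mature 3p arm in RefSeq on GRCm38.p6, and they are printed 5′ to 3′ with the seed (bases 2 to 8) in capitals.
miR-23a-3p: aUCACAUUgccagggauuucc
miR-27a-3p: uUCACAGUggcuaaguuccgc
miR-27b-3p: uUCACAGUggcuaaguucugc
miR-24-3p: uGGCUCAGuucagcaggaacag
These hold 3 distinct seeds. miR-27a and miR-27b share their seed and differ at 1 of 21 bases, C19U, counted from the 5′ end with the base of miR-27a first. The seeds of miR-23a and miR-27a differ at 1 of 7 bases, U7G, with the base of miR-23a first. The mature miR-24 sequence is identical at its 2 loci, so its assay cannot tell which cluster made the RNA.

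All hairpins lie on the plus strand. The mature miR-23a is at chr8:84208563-84208583, miR-27a at chr8:84208727-84208747 and the Mir24-2 copy of miR-24 at chr8:84208875-84208896 (GRCm38.p6). This cluster spans 404 bp, with gaps of 79 and 56 bp between its hairpins, and no other gene of the annotation spans it. The mature miR-27b is at chr13:63300760-63300780 and the Mir24-1 copy of miR-24 at chr13:63301251-63301272. That cluster, which begins with Mir23b, spans 792 bp, with gaps of 154 and 423 bp, and lies inside the protein-coding gene Aopep, an aminopeptidase gene. Whether it is exonic or intronic there is not given by the gene table used here.

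The 5 assays differed widely in how often they gave a signal. An assay counted as detected below Ct 35. miR-24 was detected in 4 of 4 ischemia/reperfusion mice and 4 of 4 sham mice. miR-27a and miR-27b were each detected in 2 of 4 ischemia/reperfusion mice and 3 of 4 sham mice. miR-23b was detected in 0 of 4 ischemia/reperfusion mice and 2 of 4 sham mice, and miR-23a never gave a Ct. Of all 750 miRNA assays, 7.2% gave a Ct below 35 in every sample and 75.1% in no sample. A later Ct in one assay than in another does not show less of that miRNA, because assays differ in efficiency. Levels are therefore compared below between groups and not between assays. Sums over the assays of a cell type are also set only between groups.

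**Figure D1:**
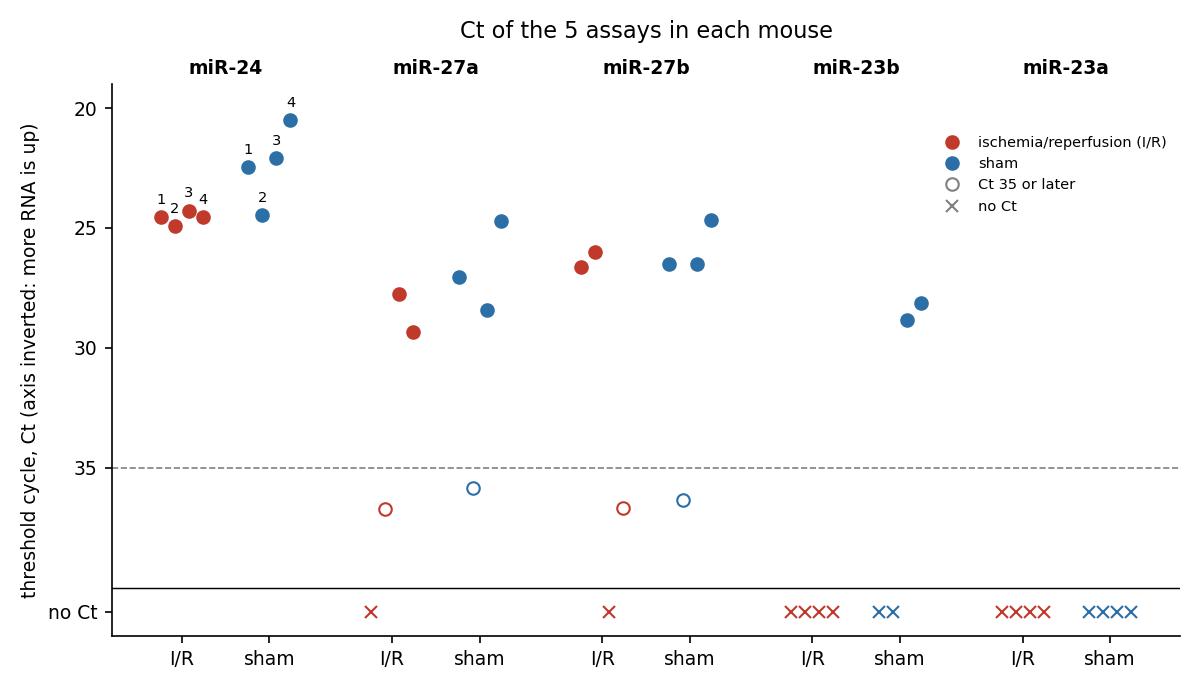
Ct of the 5 assays in each ischemia/reperfusion (I/R) and sham mouse, on an inverted axis so that more RNA is up, with mouse numbers at miR-24 and the same left-to-right order elsewhere. Filled points lie below Ct 35 (dashed line), open points later, and crosses had no Ct. miR-24 was detected in all 8 mice, while miR-23a gave no Ct in any.

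miR-24 came up within a narrow window after ischemia/reperfusion. Its Ct was 24.55, 24.94, 24.27 and 24.56 in ischemia/reperfusion mice 1 to 4, against 22.46, 24.47, 22.09 and 20.50 in sham mice 1 to 4. Sham mice 1, 3 and 4 lay earlier than all ischemia/reperfusion mice, and sham mouse 2 lay among them. The mean Ct was 24.58 ± 0.27 after ischemia/reperfusion and 22.38 ± 1.63 in sham mice (SD, n = 4 each), a difference of 2.20 cycles (exact two-sided permutation p = 0.0571). Before normalization, fewer cells in a sample and less RNA per cell cannot be told apart. The 54 miRNAs found in every sample were together also later, with a mean Ct of 27.99 ± 0.21 after ischemia/reperfusion and 26.30 ± 1.54 in sham mice (SD, n = 4 each, exact permutation p = 0.143).

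The deposited delta Ct is the Ct minus a reference value of the same sample, and its sign was turned here so that higher means more RNA on a log2 scale. Minus delta Ct of miR-24 was -3.54, -2.56, -3.75 and -2.88 in ischemia/reperfusion mice 1 to 4, against -1.81, -2.03, -3.09 and -2.57 in sham mice 1 to 4. The groups overlap, since ischemia/reperfusion mice 2 and 4 lay above sham mouse 3. The means were -3.18 ± 0.55 after ischemia/reperfusion and -2.37 ± 0.57 in sham mice (SD, n = 4 each). The log2 difference was -0.81 ± 0.57 (SE), with a 95% interval from -2.10 to 0.48. It did not pass limma's test across the 72 miRNAs that could be tested (unadjusted p = 0.188, Benjamini-Hochberg adjusted p = 0.543), nor an exact two-sided test over all 70 assignments of the mice (permutation p = 0.143, where 0.0286 is the smallest possible). By limma, 0 of 1 tested member passed an adjusted p of 0.05, and 0% of all 72 tested miRNAs did. At an unadjusted p under 0.05 there were 10 of 72 (13.9%), and miR-24 was not among them.

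The value of miR-24 was in the middle of those tested. Its log2 difference of -0.81 stands beside a median of -0.80 over all 72, and it ranked at 36 of 72 from the lowest. Of those 72, 49 had a lower and 23 a higher mean after ischemia/reperfusion.

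**Figure D2:**
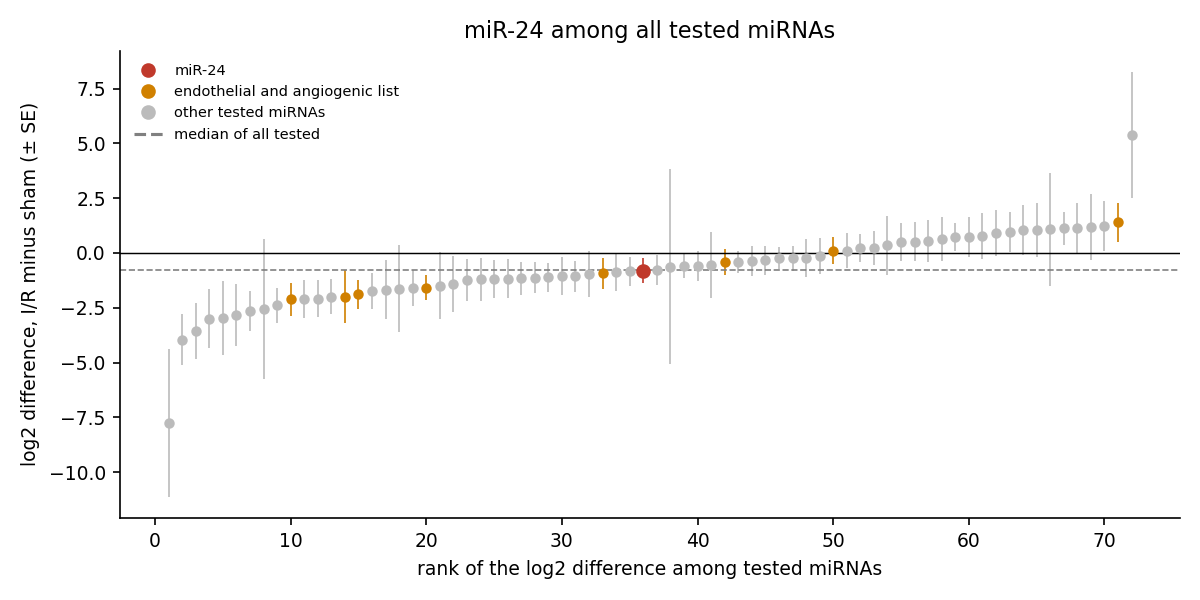
Log2 difference (ischemia/reperfusion minus sham, points, with SE bars) of the 72 tested miRNAs against their rank, with miR-24 in red and the 8 tested miRNAs of the endothelial and angiogenic list in orange. miR-24, at -0.81, lies on the dashed line of the median, -0.80.

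How far apart the groups stood depended on the reference. With the 54 miRNAs found in every sample as reference, a mean that includes miR-24 itself, miR-24 was at 3.47, 3.19, 3.41 and 3.57 on the log2 scale in ischemia/reperfusion mice 1 to 4, and at 3.73, 3.97, 3.67 and 4.31 in sham mice 1 to 4. Every ischemia/reperfusion value lay below every sham value, with means of 3.41 ± 0.16 after ischemia/reperfusion and 3.92 ± 0.29 in sham mice (SD, n = 4 each). The groups of 5 of the 72 miRNAs (6.94%) stood apart in this way on that scale.

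The assays were assigned here to 2 cards by their catalogue numbers, since no label names the cards. Against snoRNA202, a small nucleolar RNA control on the other assay card, miR-24 was at 0.02, 0.76, -0.09 and 0.69 in ischemia/reperfusion mice 1 to 4, and at 2.57, 1.89, 1.56 and 1.33 in sham mice 1 to 4. The groups again did not overlap, as was the case for 14 of the 72 miRNAs (19.4%) on that scale. The exact permutation p was 0.0286 on each of these 2 scales, the smallest the design allows, and 0.0571 after adjustment over the 4 scales. With limma across the 72 miRNAs, the log2 difference was -0.51 ± 0.44 (SE, adjusted p = 0.551) with these 54 miRNAs as reference and -1.49 ± 0.55 (SE, adjusted p = 0.121) against snoRNA202. The median of all 72 moved too, to -0.24 with the 54 miRNAs and to -1.22 with snoRNA202 as reference. miR-24 lay 0.27 below it on both scales. Each of these references is 1 value per sample for all assays and moves miR-24 and the median together, so the equal distances are no separate results.

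**Figure D3:**
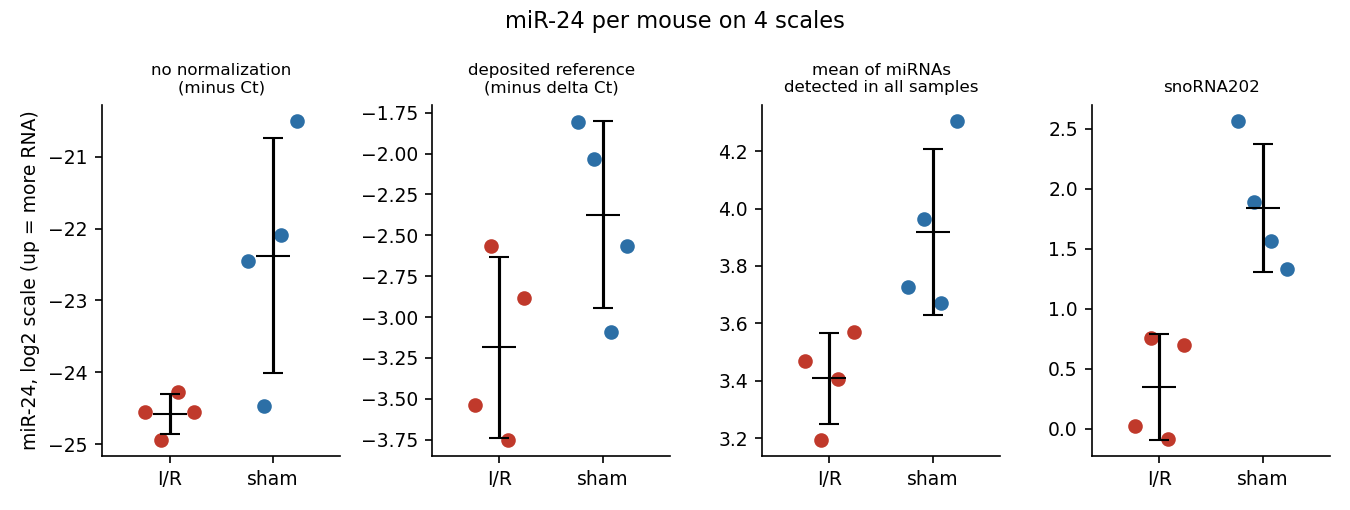
miR-24 in each mouse (points, I/R left and sham right) on 4 log2 scales, each with its own axis, with the mean and SD in black. The groups overlap without normalization and against the deposited reference, and do not overlap with the 54 common miRNAs or snoRNA202 as reference.

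miR-27a and miR-27b gave signals in different mice after ischemia/reperfusion. The Ct of miR-27a was 36.70, 27.75 and 29.33 in ischemia/reperfusion mice 2 to 4, with no Ct in mouse 1, against 27.03, 35.84, 28.43 and 24.72 in sham mice 1 to 4. The Ct of miR-27b was 26.63, 26.00 and 36.67 in ischemia/reperfusion mice 1, 2 and 4, with no Ct in mouse 3, against 26.49, 36.35, 26.48 and 24.66 in sham mice 1 to 4. In each ischemia/reperfusion mouse exactly 1 of the paralogs was detected, miR-27b in mice 1 and 2 and miR-27a in mice 3 and 4. In sham mice 1, 3 and 4 both were detected, and in sham mouse 2 neither was.

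The Ct gap between these assays is read here only for how it varied from mouse to mouse, not as a level of one miRNA against the other. The Ct of miR-27a minus that of miR-27b was 0.54, -0.51, 1.95 and 0.06 cycles in sham mice 1 to 4. After ischemia/reperfusion it was 10.70 cycles in mouse 2 and -7.33 cycles in mouse 4. With Ct 35 in the wells that had none, the gap was at least 8.37 cycles in mouse 1, where miR-27a had no Ct. In mouse 3, where miR-27b had none, it was at least 7.25 cycles in the opposite, negative direction. This pattern was chosen after its values were seen, so it is given without a test. Of the assays on the same card, 17 were detected in exactly 2 of 4 ischemia/reperfusion mice, and of the 136 pairs among them, 18 pairs (13.2%) shared no mouse. These pairs share assays and samples, so they are no independent points.

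**Figure D4:**
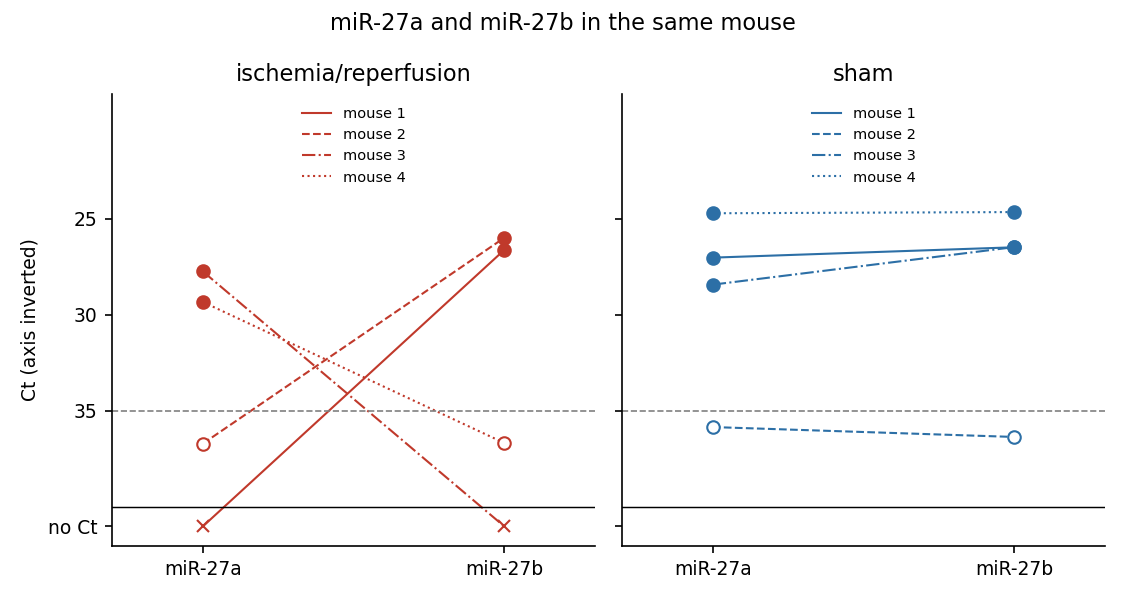
Ct of miR-27a and miR-27b on an inverted axis, with a line for each mouse, in ischemia/reperfusion mice (left) and sham mice (right). Open points lie at Ct 35 or later and crosses had no Ct. The slope of the lines, which also holds any difference in assay efficiency, varies little among sham mice, with gaps of -0.51 to 1.95 cycles, and runs both ways after ischemia/reperfusion. In sham mouse 2, with the gap of -0.51, neither assay was detected, and each ischemia/reperfusion line has 1 end that was not detected.

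Neither miR-27 assay met the rule for testing, detection in at least 3 samples of each group. In detected values alone, minus delta Ct of miR-27a averaged -7.44 over 2 ischemia/reperfusion mice and -7.54 over 3 sham mice, a log2 difference of 0.09. For miR-27b it averaged -4.62 over 2 ischemia/reperfusion mice and -6.68 over 3 sham mice, a log2 difference of 2.07. These differences leave out every mouse without a signal. With values not detected set to Ct 35, they turned to -1.58 for miR-27a and -1.11 for miR-27b. Both assays would enter a test on that scale only through the sham group, in which they were detected more often, so no test is given. The difference in detection did not pass Fisher's exact test (p = 1.00 for each). Each assay had 5 detected samples in all, and no split of these between the groups could pass. This test therefore cannot decide whether detection differed. Of the 43 assays detected in exactly 3 of 4 sham mice, 12 (27.9%) were, like miR-27a and miR-27b, detected in exactly 2 ischemia/reperfusion mice. In 41 of the 43, the sham mouse without detection was mouse 2.

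The miR-23 assays gave little signal. miR-23b had Ct 28.85 and 28.13 in sham mice 3 and 4, the sham mice with the most detected assays, and no Ct in the other samples of either group. On the minus delta Ct scale these were -9.85 and -10.19. The difference in detection, 0 of 4 ischemia/reperfusion and 2 of 4 sham mice, did not pass Fisher's exact test (p = 0.429). That is the smallest p possible with 2 detected samples in all, so this test cannot decide whether detection differed. Of the 35 assays detected in exactly 2 sham mice, 21 (60.0%) were detected in no ischemia/reperfusion mouse, and in 21 of the 35 those sham mice were mice 3 and 4. No fold is given for miR-23b, nor for miR-23a, which stayed without a Ct where its neighbour miR-27a was detected in 5 samples.

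The other arms of these hairpins gave no detected value. The assays hsa-miR-23a#, hsa-miR-27b#, mmu-miR-24-2# and rno-miR-24-1# gave no Ct at all. hsa-miR-27a# had a Ct of 36.73 in ischemia/reperfusion mouse 1 and of 38.65 in sham mouse 4, both over the detection limit. The # arms are the ones that differ between the miR-24 loci, so these data do not show which locus the miR-24 signal came from.

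Ratios between members of the same sample need no reference, since all 5 assays sit on the same card. No pair of members was detected together in at least 3 mice of each group, so no ratio could be tested under that rule. With every reported Ct counted, the log2 ratio of miR-27a to miR-24 differed by -0.04 between ischemia/reperfusion and sham mice, and that of miR-27b to miR-24 by 1.04 (3 ischemia/reperfusion and 4 sham mice, exact permutation p = 1.00 and 0.657, adjusted p = 1.00 for both pairs).

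In the authors' deposited table, the fold of ischemia/reperfusion over sham is 0.571 for miR-24, 0.600 for miR-27a and 1.33 for miR-27b. For miR-27a and miR-27b the authors' deposited table averages 3 ischemia/reperfusion and 4 sham wells, of which 2 per assay were at Ct 35 or later, and leaves out the well with no Ct. For hsa-miR-27a# the fold in the authors' deposited table is 23.8, from 1 well per group, both at Ct 35 or later.

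Among 33 other miRNAs of the same card with a Ct below 35 in every sample, those that moved most like miR-24 across the mice were miR-26a, let-7c and the endothelial miRNA miR-126-3p. The measure was the SD over the 8 samples of the Ct difference to miR-24, which was 0.44, 0.46 and 0.56 cycles for these miRNAs, beside a median of 1.02 cycles over the 33. The assays of a sample share its RNA input, and the part of that in this likeness was not tested. Their log2 differences were -1.11 ± 0.65 for miR-26a, -0.59 ± 0.56 for let-7c and -1.59 ± 0.57 for miR-126-3p (SE, n = 4 per group, limma adjusted p = 0.496, 0.587 and 0.228).

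Of 20 assays for 19 other endothelial and angiogenic miRNAs, 8 could be tested and 0 passed in either direction. Of these 8, 6 had a lower and 2 a higher mean after ischemia/reperfusion. Their median was -1.26 on the log2 scale, beside -0.80 over all 72. The smallest p belonged to miR-218 (-1.89 ± 0.66), miR-222 (-2.12 ± 0.74) and miR-126-3p (SE, n = 4 per group, limma adjusted p = 0.228 for each). miR-218 is encoded within the Slit guidance genes, and miR-222 restrains endothelial migration.

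The cells carried the endothelial marker miR-126-3p in all 8 samples, at Ct 26.63 to 27.60 after ischemia/reperfusion and 22.19 to 25.72 in sham mice. The other arm of the same hairpin, miR-126-5p, had a log2 difference of 0.11 ± 0.60, beside -1.59 ± 0.57 for miR-126-3p (SE, n = 4 per group, limma adjusted p = 0.892 and 0.228). CD34 and CD105 themselves were not measured. Assays of other cell types detected in at least 1 sample were 8 of 9 for leukocytes, 3 of 3 for smooth muscle, 6 of 8 for fibroblasts and mesenchyme, 4 of 12 for epithelium and kidney tubule and 0 of 3 for erythroid cells. Of all 750 miRNA assays, 187 were detected in at least 1 sample. The tubule marker miR-192 was detected in 0 of 4 ischemia/reperfusion and 1 of 4 sham mice. The sums that follow add assays of unlike efficiency, and wells not detected add nothing. They set the groups side by side within a list and do not compare cell types with each other. The summed level of the endothelial assays, miR-126-3p and miR-126-5p, relative to the reference was 0.0181 to 0.0380 after ischemia/reperfusion and 0.0377 to 0.113 in sham mice. The summed level of the fibroblast and mesenchymal assays relative to the reference, without miR-22 and miR-199a-5p, which were not detected, was 0.0216 to 0.0400 after ischemia/reperfusion and 0.0162 to 0.0982 in sham mice. That of the smooth muscle assays was 0.000254 to 0.000684 after ischemia/reperfusion and 0.000309 to 0.00300 in sham mice. For leukocyte assays, where miR-142-5p was not detected, it was 0.00589 to 0.0711 after ischemia/reperfusion and 0.00815 to 0.0371 in sham mice. For epithelial and tubule assays, where miR-141, miR-215, miR-429 and the miR-200 assays were not detected, it was 0 to 0.0923 after ischemia/reperfusion and 0 to 0.364 in sham mice. Of the 5 tested fibroblast and mesenchymal assays, 5 had a lower and 0 a higher mean after ischemia/reperfusion, and 0 passed. Their median was -2.65, beside -0.80 over all 72 tested miRNAs, of which 49 were lower. The mesenchymal marker miR-214 was at -3.95 ± 1.17 by the mmu-miR-214 assay (SE, 4 ischemia/reperfusion and 3 sham values, limma adjusted p = 0.228) and at -0.86 ± 0.87 by the hsa-miR-214 assay (SE, n = 4 per group, adjusted p = 0.605). The smooth muscle marker miR-145 was at -2.09 ± 0.84 (SE, n = 4 per group, limma adjusted p = 0.278). Of the 4 tested leukocyte assays, 1 had a lower and 3 a higher mean after ischemia/reperfusion. They were miR-150 at -1.62 ± 2.00, mmu-miR-223 at 0.63 ± 1.00, hsa-miR-223 at 1.15 ± 1.13 and miR-155 at 0.23 ± 0.66 (SE, n = 4 per group), and 0 of the 4 passed. Of these markers, miR-126-5p, miR-150 and miR-155 lie outside the naming rule and were named with their values known. The part of these cell types in the values of miR-24 was not tested.

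Across the samples, 82 to 98 miRNA assays were detected after ischemia/reperfusion and 75 to 163 in sham mice, sham mouse 2 having the fewest. The reference Ct of the members' card was 20.52 to 22.37 after ischemia/reperfusion and 17.94 to 22.44 in sham mice (exact permutation p = 0.286), and that of snoRNA202 was 24.19 to 25.69 after ischemia/reperfusion and 21.84 to 26.36 in sham mice (p = 0.543). The snoRNA135 and Y1 assays of that card had a Ct in all 8 samples, and the plant control ath-miR159a had none on either card. Without sham mouse 2, the log2 difference of miR-24 was -0.70 ± 0.59 (SE, limma adjusted p = 0.428).

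**Figure D5:**
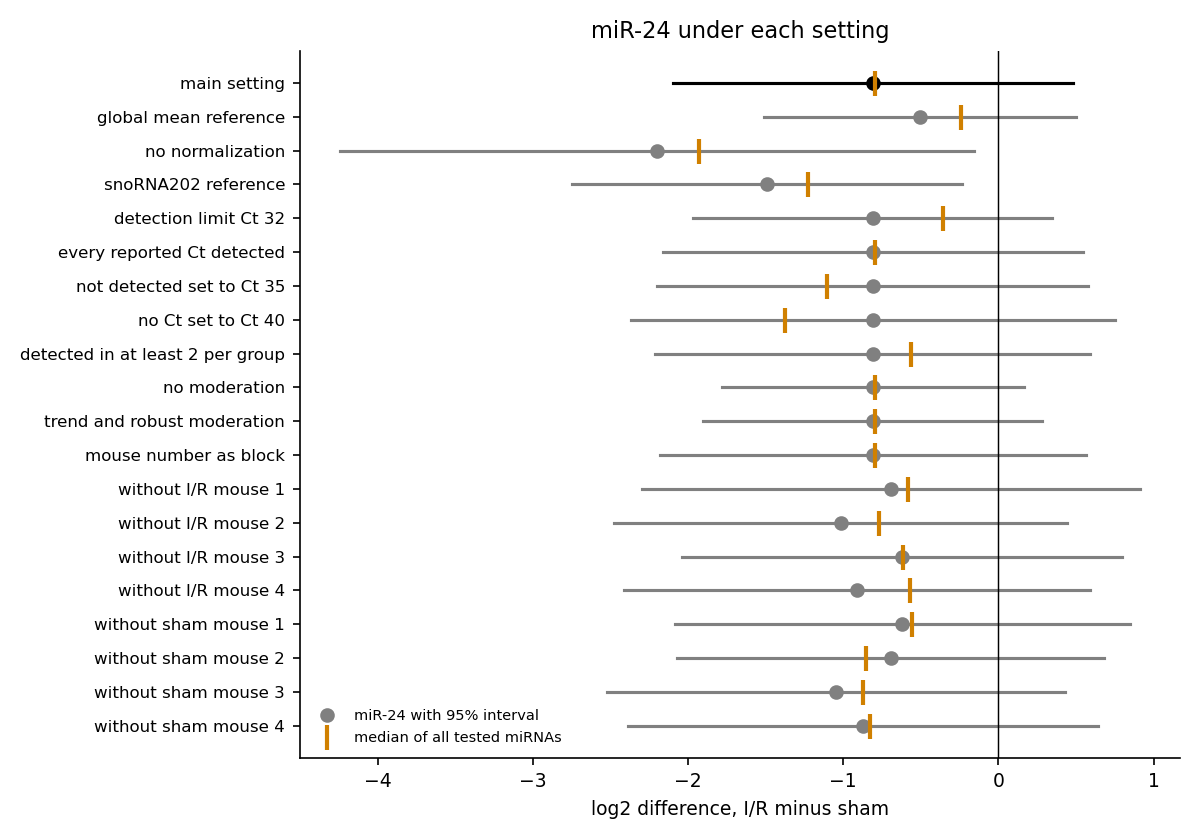
Log2 difference of miR-24 (ischemia/reperfusion minus sham, points) with its 95% interval from limma under the main setting (top) and 19 alternatives, and the median of all tested miRNAs under the same setting (orange ticks). All values are below 0, from -2.20 to -0.51, and the intervals without normalization and against snoRNA202 do not reach 0. Only the settings with another reference or a left-out mouse could move the point of miR-24.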

How the data were processed

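Sorted-cell RNA came from the mirVana kit and was read on a 7900HT instrument by real-time PCR with FAM probes, per the labels' protocols. The authors deposited Ct values (769 rows, 750 miRNA and 7 control assays) and delta Ct values, which are on a log2 scale with opposite sign. They also deposited a fold ratio computed, per the file headers, as 2 to the power of the mean sham minus the mean experimental delta Ct. The assays were assigned here to 2 cards by their 2 series of catalogue numbers, and no label names the cards. The delta Ct equals the Ct minus 1 value per sample and card. No source used here names the reference RNA, the software or the number of wells. The precision is that of 4 mice per group. The labels number separate mice, taken as replicates.

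Values at Ct 35 or later were missing, repeated wells were averaged, and the 72 miRNAs found below Ct 35 in 3 or more mice per group were compared by limma 3.58.1 (R 4.3.3). Its two-sided p-values (lmFit, eBayes) were adjusted by Benjamini-Hochberg over all 72, with a threshold of 0.05. The fit was tested on simulated data. Exact permutation and Fisher tests were run in Python 3.11.15 with scipy 1.17.1. No per-sample column was left out. In 13 wells, none of them a member's, the delta Ct table held a value without a Ct, and these were missing here. The alternatives changed the reference, the Ct limit, the handling of wells without signal, the number of mice required, the moderation or the test, added a block by mouse number, or left out a mouse. The members and lists were chosen with earlier results of these data known. miRNAs named besides the members, their other arms and the controls are the 3 most like miR-24 by the SD of the Ct difference, the 3 of the endothelial and angiogenic list with the smallest p, and a defining marker of each of 5 cell types. The contrast between miR-27a and miR-27b was described after its values were seen. Gene positions and sequences are from RefSeq on GRCm38.p6.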

Additional observations from a re-analysis of the deposited data

Results flagged for a closer look

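In sham mice, the Ct of miR-27b was 36.35 in mouse 2, far from the other sham mice, which lay between 24.66 and 26.49. The gap to the nearest mouse was 0.843 of the whole range of the group, over Dixon's 95% limit for 4 samples. The same mouse had a Ct of 35.84 for miR-27a and the fewest detected assays of all samples (75). In all, 32 groups of 4 values were examined and 1 was singled out, and chance alone gives about 1 in 20.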

How the results depend on the processing

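The log2 difference of miR-24 stayed below 0 and did not pass the adjusted threshold under any of 20 alternatives, with values from -2.20 without normalization to -0.51 against the mean of the 54 miRNAs and adjusted p from 0.121 to 0.704. Only another reference or a left-out mouse could move this value. miR-24 was below Ct 32 in every sample, so the Ct limit and the handling of wells without signal left it at -0.81. The moderation, the test and the block bear on its p alone. Leaving out each mouse gave -1.05 to -0.62. The number of members past the threshold was 0 throughout, and the number of all tested miRNAs past it was 0 in the main setting and 1 with every reported Ct counted, with values not detected at Ct 35 and with wells without a Ct at 40. It was also 1 without sham mouse 1 and without sham mouse 2 (0 to 1 over the mice left out), and in no case was it a member. By limma, 10 miRNAs had an unadjusted p under 0.05 in the main setting, and 2 by the exact test. The smallest p of the exact test for 4 against 4 mice is 0.0286. It could pass adjustment only if many of the 72 miRNAs reached it, so that alternative had little room to pass. With mouse number as a block, miR-24 was at -0.81 (adjusted p = 0.499) and 0 of 72 miRNAs passed. Same-numbered mice did not deviate together, with a correlation over 54 miRNAs from -0.38 to 0.02 for the 4 numbers, and in 0 of 4 cases was the own number the best match.

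The untested differences of the miR-27 assays turned in sign under several settings. miR-27a, at 0.09 over detected values, was at -1.81 without normalization, -0.60 against snoRNA202, -0.74 with every reported Ct, -1.58 with Ct 35 and -3.05 with Ct 40 for missing wells, and at -0.86 to 0.67 when each mouse was left out, including -0.13 without ischemia/reperfusion mouse 3 and -0.86 without sham mouse 3. miR-27b, at 2.07 over detected values, was at -0.43 without normalization, 0.42 with every reported Ct, -1.11 with Ct 35 and -2.44 with Ct 40, and at 1.08 to 3.06 when each mouse was left out. With a limit of Ct 32, both kept their values, since no Ct of theirs lay between 32 and 35. The ratio between members had no value under the main rule, so its block and left-out mice were not run. With Ct 35 for missing values, 3 pairs of miR-24, miR-27a and miR-27b differed by -0.77 to -0.30 between the groups. For each miR-27 assay, 2 of the 4 ischemia/reperfusion values are then the set value and not a measurement, so no p is given. Wells at Ct 35 or later and wells without a Ct limit the miR-27 assays, and wells without a Ct limit the miR-23 assays. No difference in level was tested for them in the main setting.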
